A study of Homo sapiens with 27 samples.

Results

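Androgen-converting enzymes decide which sex steroids a prostate cell holds, and the RNA levels of 9 of their genes were followed here among 20268 genes of an exon count table. The genes were taken by symbol: the 5α-reductases SRD5A1 and SRD5A3, the 17β-hydroxysteroid dehydrogenases HSD17B2, HSD17B4, HSD17B6, HSD17B10 and HSD17B11, the aldo-keto reductase AKR1C3 and the steroid sulfatase STS. All 9 were found in the table. The study knocked down CPSF1 in LNCaP, LNCaP95 and 22Rv1 prostate cancer cells by lentiviral shRNA and asked which genes and pathways respond. LNCaP is an androgen-sensitive line, LNCaP95 is a derivative of LNCaP that grows without androgen, and 22Rv1 is a castration-resistant line. Each line carried a control hairpin (CTRL sh) or 1 of 2 that target CPSF1, named CPSF1 sh1 and CPSF1 sh2 (sh1 and sh2 for short), which makes 9 groups of 3 biological replicates, or 27 libraries. All groups, controls included, had been infected and selected with puromycin, then grown for 72 h from 500000 cells per well. LNCaP and 22Rv1 cells grew in RPMI with serum and LNCaP95 cells in the same medium without phenol red. The protocol names the higher puromycin dose for LNCaP and 22Rv1 cells and gives a lower dose with no line named. Line, medium and possibly puromycin dose therefore cannot be told apart where LNCaP95 cells are compared with another line. The cells are infected populations of established lines, and nothing in the sources says whether replicates came from separate infections, so p-values measure the spread between these cultures.

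As background, prostate cells can make testosterone and dihydrotestosterone from circulating adrenal precursors. STS frees dehydroepiandrosterone from its sulfate, AKR1C3 reduces androstenedione to testosterone, and 5α-reductases convert testosterone to dihydrotestosterone. HSD17B2 and HSD17B11 work in the oxidative direction, HSD17B6 can return a spent androgen metabolite to dihydrotestosterone, and HSD17B4 and HSD17B10 act mainly outside the steroid pathway, in peroxisomes and in mitochondria. CPSF1 is the largest subunit of the cleavage and polyadenylation specificity factor, the complex that reads the AATAAA signal (AAUAAA in RNA) just upstream of where a messenger RNA is cut and given its poly(A) tail.

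Since that signal is the sequence CPSF reads, the gene ends of the 5 members with the largest called change with both hairpins, among those above the count filter, are shown here, as 30 bases of GRCh37 around the signal, or the last 30 where none was found, in the sense of the gene, 5′ to 3′. Capitals mark AATAAA or its common variant ATTAAA, searched on the sense strand in the last 50 bases before the gene end given in the count table.
STS, chrX:7272822-7272851, + strand: gttttctaagaacttcatgggccttccata
AKR1C3, chr10:5149841-5149870, + strand: ggccagaaagacAATAAAtttttatcattt
SRD5A1, chr5:6669641-6669670, + strand: ctttaacaacatAATAAAtagactttgcca
SRD5A3, chr4:56239230-56239259, + strand: atgagctgatatATTAAAgaagaccttaaa
HSD17B10, chrX:53458213-53458242, - strand: ccctctgtgcctAATAAAgtctctttttct
AKR1C3, SRD5A1 and HSD17B10 had AATAAA and SRD5A3 had ATTAAA, while neither was found in the STS window. Over the 9 members, 6 had AATAAA, 2 had ATTAAA and 1 had neither. Among 10297 genes above 2 CPM (read counts scaled to library size) in all 27 libraries, 60.9% had AATAAA, 14.6% had only ATTAAA and 24.6% had neither. A gene end in the annotation need not be the end these cells use.

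The libraries held 8515624 to 15904518 counts, with a median of 11058723. Levels below are CPM after TMM scaling over all 27 libraries, and RPKM, which also divides by exon length, is used to compare genes. CPSF1 itself was measured at 151 to 153 CPM in LNCaP CTRL sh libraries and 86.6 to 108 CPM with either hairpin, at 95.3 to 126 against 56.4 to 67.2 CPM in LNCaP95 cells, and at 182 to 189 against 111 to 141 CPM in 22Rv1 cells. All 18 CPSF1 sh libraries lay below the controls of their line. The 7 luminal prostate markers were above 2 CPM in every line. Their sum was 3235 to 3286 CPM in LNCaP controls and 2932 to 3143 CPM with the hairpins, 3258 to 3421 and 3068 to 3170 CPM in LNCaP95 cells, and 3207 to 3224 and 3035 to 3353 CPM in 22Rv1 cells. In LNCaP cells the summed endothelial markers were at 22.4 to 28.1 CPM in controls and 9.35 to 12.7 CPM with the hairpins, the stromal markers at 26.2 to 31.4 and 17.9 to 21.0 CPM, the basal markers, of which TP63 had no read, at 1.60 to 2.21 and 4.25 to 6.58 CPM, and the immune markers at 0.0883 to 0.378 and 1.18 to 2.05 CPM. In LNCaP95 cells the immune markers were at 0.0713 to 0.265 and 0.723 to 2.65 CPM and the endothelial markers at 0.674 to 1.24 and 1.69 to 4.29 CPM. In 22Rv1 cells the neuroendocrine markers were at 78.6 to 86.0 and 61.5 to 75.3 CPM, the stromal markers at 23.9 to 25.7 and 17.7 to 21.5 CPM, and the basal markers at 1.10 to 2.54 and 7.27 to 24.5 CPM. The other sums overlapped between controls and knockdown. Of these lists none of 4 immune, 1 of 4 basal, at most 1 of 2 endothelial, 2 of 5 stromal (1 in LNCaP95) and at most 2 of 3 neuroendocrine markers had a mean above 2 CPM. The part of these markers in the results was not tested.

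The third LNCaP CPSF1 sh1 library stood apart. Over 114 genes that are expressed in 22Rv1 cells and nearly silent in LNCaP cells, it held 6.62% of the 22Rv1 level, against 0.104 to 0.165% in the other 8 LNCaP libraries. In LNCaP cells AKR1C3 and HSD17B11, both high in 22Rv1 cells, reached their highest level in that library, at 4.66 and 14.4 CPM. For scale, 6.62% of their mean level over the 22Rv1 libraries is 2.50 and 5.18 CPM. Knockdown values of the members in LNCaP cells are therefore also given without it.

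**Figure D1:**
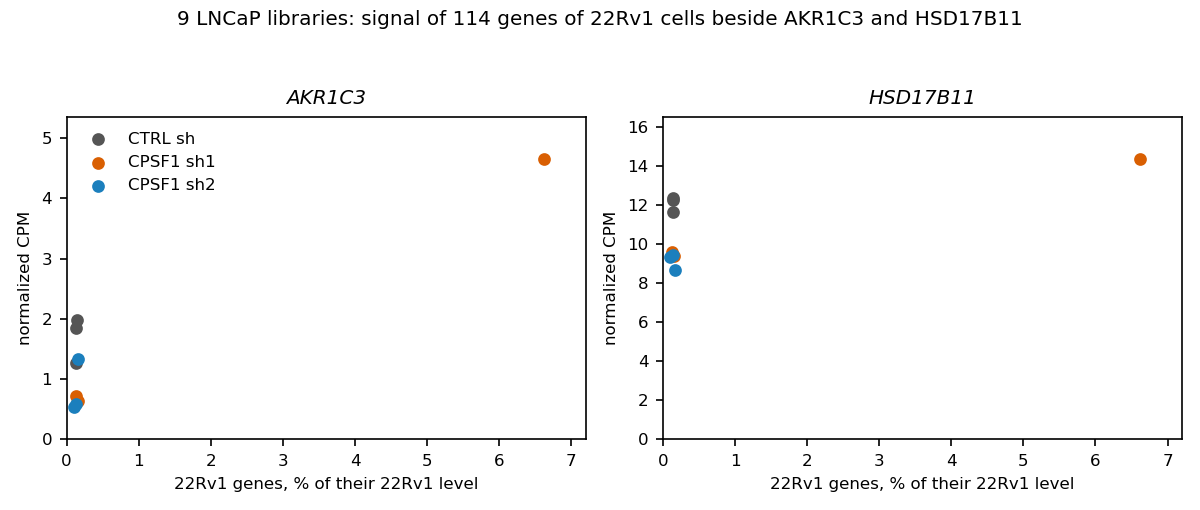
Level of AKR1C3 (left) and HSD17B11 (right) in normalized CPM on the y axis against the signal of 114 genes of 22Rv1 cells, in percent of their 22Rv1 level, on the x axis. Each point is 1 of the 9 LNCaP libraries and colours mark the hairpin. The CPSF1 sh1 library at 6.62% lies apart from the other 8, at 0.104 to 0.165%, and has the highest level of both genes.

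The lines differed in their enzymes before any knockdown. In LNCaP CTRL sh libraries the order by RPKM was HSD17B4 (96.4 ± 1.76, SD, n = 3), HSD17B10 (91.4 ± 4.10), SRD5A3 (15.5 ± 0.841), SRD5A1 (14.3 ± 0.640), HSD17B11 (5.53 ± 0.179), STS (1.86 ± 0.228), HSD17B6 (0.780 ± 0.0745), AKR1C3 (0.591 ± 0.133) and HSD17B2 (0.0548 ± 0.0489). The ranges of HSD17B4 and HSD17B10 overlapped there, as did those of SRD5A3 and SRD5A1. In LNCaP95 cells SRD5A3 (41.5 ± 2.23) and SRD5A1 (20.5 ± 0.236) again came after HSD17B4 (83.3 ± 1.65) and HSD17B10 (79.3 ± 0.880), and STS (0.304 ± 0.0440) and AKR1C3 (0.246 ± 0.0665) overlapped near the bottom. In 22Rv1 cells HSD17B11 (40.9 RPKM) and AKR1C3 (21.7 ± 1.46) moved above SRD5A3 (15.3 ± 0.195) and SRD5A1 (9.59 ± 0.494), behind HSD17B10 (113 ± 1.41) and HSD17B4 (79.1 ± 1.87). STS (1.52 ± 0.132) and HSD17B6 (1.504 ± 0.208) overlapped there, and HSD17B2 had no read in any of the 9 22Rv1 libraries, a count of 0 that allows up to 0.247 to 0.313 CPM per library. That limit covers counting error only.

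**Figure D2:**
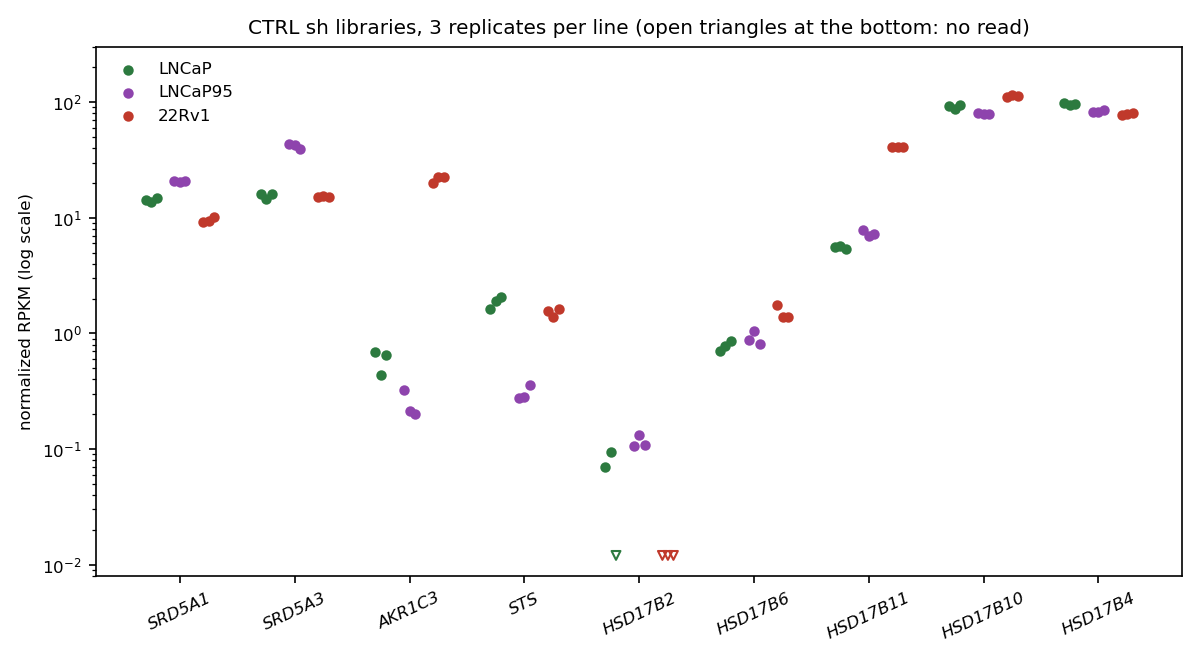
Baseline level of the 9 genes in normalized RPKM (y axis, log scale) in CTRL sh libraries, with 3 points per line coloured by line. Open triangles at the bottom stand for libraries with no read. AKR1C3 and HSD17B11 are highest in 22Rv1 cells, SRD5A3 and SRD5A1 in LNCaP95 cells, and STS is lowest in LNCaP95 cells.

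AKR1C3 was 35.8 times higher in 22Rv1 than in LNCaP controls (log2 5.16 ± 0.13, SE) and 82.2 times higher than in LNCaP95 controls (log2 6.36 ± 0.14), the largest baseline differences of any member. HSD17B11 was 7.21 and 5.42 times higher in 22Rv1 cells. SRD5A3 was 2.69 times higher in LNCaP95 than in LNCaP cells, from which LNCaP95 derives, and did not pass the test between 22Rv1 and LNCaP cells (log2 -0.05, 95% interval -0.17 to 0.06). STS in LNCaP95 cells was at 0.162 of its LNCaP level (log2 -2.63 ± 0.16). Of the 8 members tested at baseline, 7 differed between LNCaP95 and LNCaP cells (3 higher and 4 lower, where 77.7% of all tested genes differed), 7 between 22Rv1 and LNCaP (4 higher and 3 lower, background 84.3%) and 8 between 22Rv1 and LNCaP95 (5 higher and 3 lower, background 86.3%). AKR1C3 and HSD17B6 passed the low-count filter only through the 22Rv1 libraries, where they are highest. The threshold in all these counts was an adjusted p below 0.05 by edgeR's quasi-likelihood test.

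With both hairpins against the control, 2 of 6 tested members rose in LNCaP cells (STS and HSD17B10) and none fell, where 62.1% of all tested genes changed (31.1% higher and 31.0% lower). Without the library that stood apart HSD17B11 also fell there (log2 -0.38 ± 0.09, adjusted p = 0.00192, edgeR), beside a background of 61.9%. In LNCaP95 cells HSD17B10 rose and SRD5A1 and SRD5A3 fell among 5 tested, against a background of 66.9% (33.2% higher and 33.7% lower). In 22Rv1 cells AKR1C3, HSD17B11, SRD5A3 and HSD17B4 fell and none rose among 8 tested, against a background of 26.9% (12.7% higher and 14.3% lower). The median log2 change of the tested members was -0.02 for LNCaP, 0.01 for LNCaP95 and -0.09 for 22Rv1 cells. That of all tested genes lay within 0.01 of 0 in each line. These are bulk measurements, in which a change in the number of cells that express a gene and a change in its RNA per cell cannot be told apart.

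**Figure D3:**
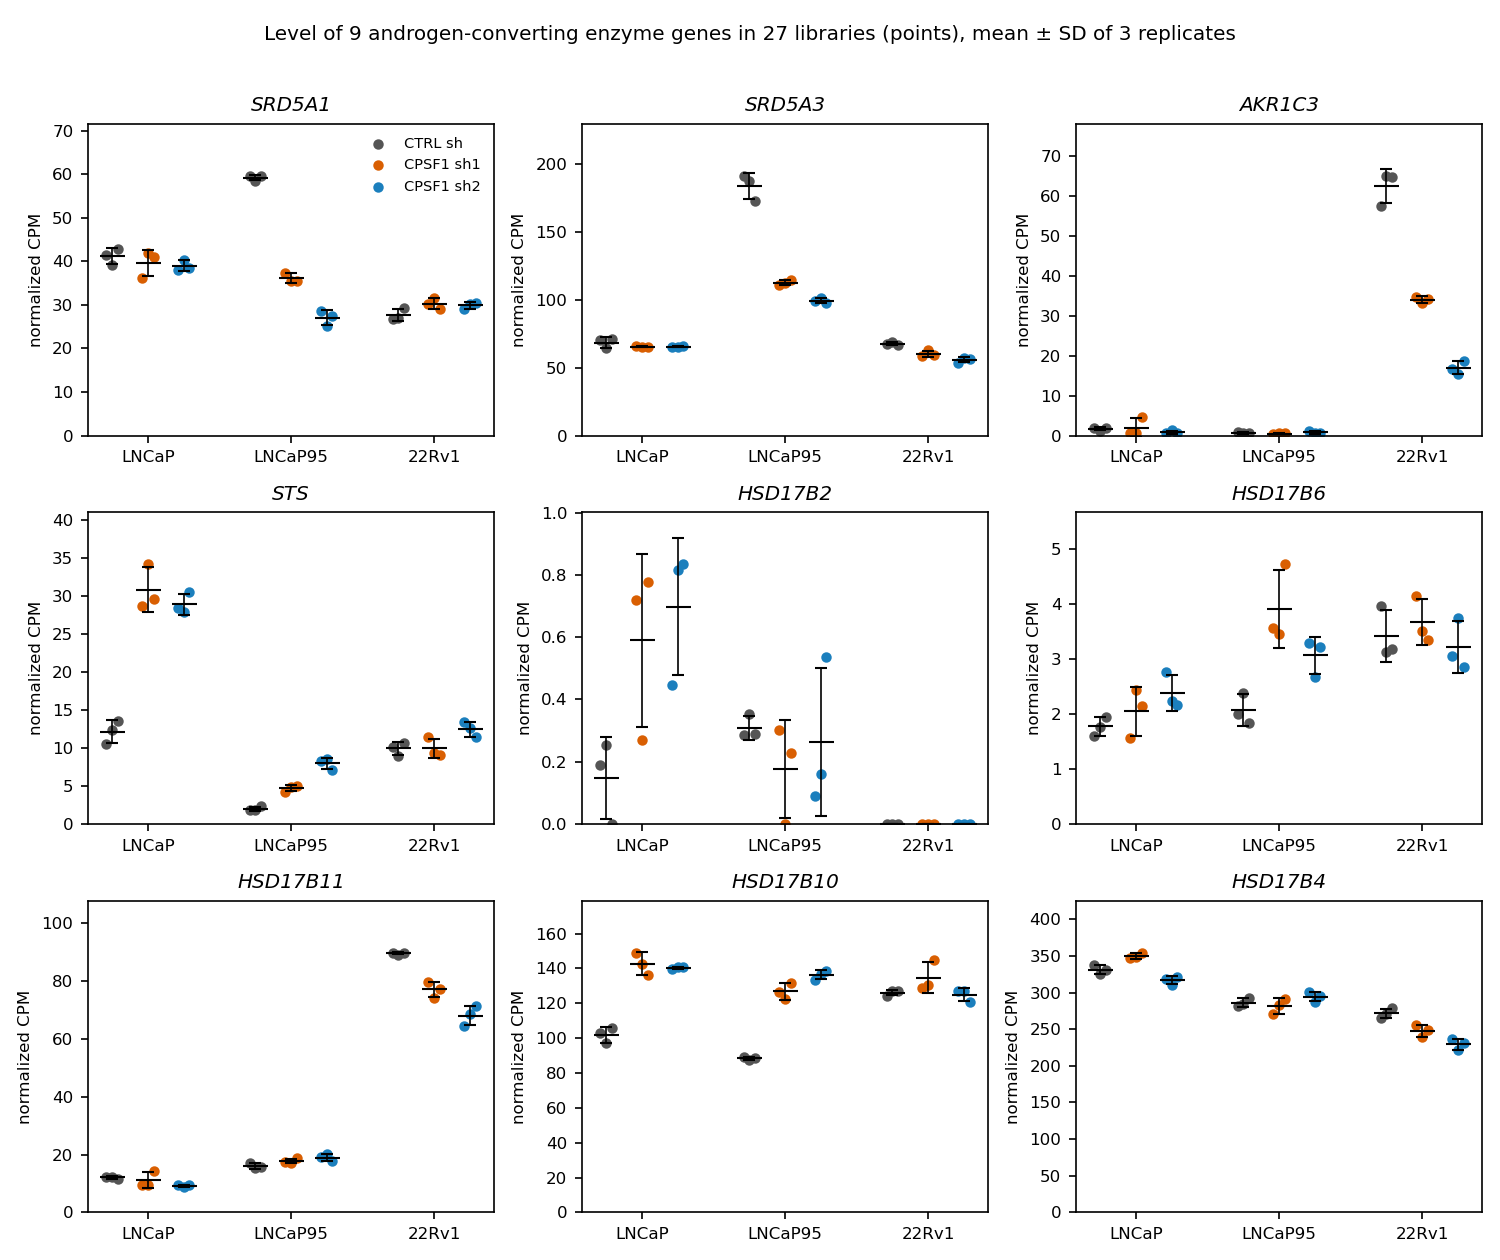
Level of each gene in normalized CPM (y axis, from 0, a scale per panel) in all 27 libraries, grouped by line on the x axis and coloured by hairpin. Points are libraries, and bars give the mean ± SD of 3 replicates. STS rises in LNCaP and LNCaP95 cells, AKR1C3 falls in 22Rv1 cells, and SRD5A1 and SRD5A3 fall most in LNCaP95 cells.

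STS (chrX:7137497-7272851, + strand) is the entry point for sulfated precursors. In LNCaP cells it was at 10.6, 12.4 and 13.5 CPM in the CTRL sh libraries, at 28.7, 34.2 and 29.5 CPM with sh1 and at 28.4, 27.9 and 30.5 CPM with sh2. Every knockdown library lay above every control, and the 2 hairpins overlapped. The rise was 2.45-fold (log2 1.30 ± 0.09, SE, adjusted p = 2.68e-08, edgeR), and log2 1.30 ± 0.10 without the library that stood apart. In LNCaP95 cells STS was at 1.78, 1.85 and 2.31 CPM in controls, 4.22, 4.93 and 5.02 CPM with sh1 and 8.23, 8.59 and 7.15 CPM with sh2, from 21 to 106 counts a library. Those 3 groups did not overlap, but STS missed the filter, which asked for more than 2 CPM in all 9 libraries of a line. Under edgeR's filterByExpr, which keeps it, the change with both hairpins was log2 1.63 ± 0.28 (adjusted p = 0.00021, edgeR). In 22Rv1 cells STS was at 10.1, 8.99 and 10.7 CPM in controls, 11.4, 9.39 and 9.06 CPM with sh1 and 13.4, 12.6 and 11.4 CPM with sh2. Only CPSF1 sh2 passed the test there (log2 0.34 ± 0.12, adjusted p = 0.0335, edgeR), and that call was lost with DESeq2 (adjusted p = 0.0914) and in edgeR without CTRL sh replicate 1 or 2 or CPSF1 sh2 replicate 1 or 2 (adjusted p = 0.0688, 0.132, 0.131 and 0.0736).

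AKR1C3 (chr10:5077546-5149878, + strand) makes testosterone from androstenedione and also reduces prostaglandin D. In 22Rv1 cells it was at 57.6, 65.1 and 64.7 CPM in controls, 34.8, 33.1 and 34.2 CPM with sh1 and 16.7, 15.5 and 18.7 CPM with sh2. The 3 groups did not overlap. AKR1C3 fell by 0.88 ± 0.07 on the log2 scale with CPSF1 sh1 (adjusted p = 7.11e-07, edgeR) and by 1.86 ± 0.08 with CPSF1 sh2 (adjusted p = 1.29e-10), to 0.545 and 0.275 of the control level. The hairpins differed by log2 -0.99 ± 0.08 (CPSF1 sh2 minus CPSF1 sh1, adjusted p = 4.46e-06, edgeR). CPSF1 RNA differed between them by log2 0.07 (95% interval -0.08 to 0.21). The part of unequal knockdown in the AKR1C3 difference was not tested. In LNCaP cells AKR1C3 was below the filter, at 1.98, 1.26 and 1.85 CPM in controls, 0.720, 0.633 and 4.66 CPM with sh1 and 0.534, 1.33 and 0.584 CPM with sh2. The value of 4.66 CPM belongs to the library that stood apart. With filterByExpr the change was log2 -0.29 ± 0.58 (adjusted p = 0.687, edgeR) with that library and log2 -1.12 ± 0.32 (adjusted p = 0.00739, edgeR) without it. In LNCaP95 cells it stayed between 0.301 and 1.28 CPM in all 9 libraries, with 5 to 14 counts.

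AKR1C3 lies in a cluster of close relatives on chromosome 10, and reads from near-identical stretches could be assigned between them. In 22Rv1 cells AKR1C2, which inactivates dihydrotestosterone, was at 42.0 ± 0.549 CPM in controls, 30.5 ± 2.38 CPM with sh1 and 22.0 ± 1.09 CPM with sh2 (SD, n = 3). AKR1C1 was at 15.5 ± 0.543, 10.4 ± 1.13 and 7.92 ± 0.221 CPM, and AKR1C4 did not exceed 1.37 CPM in any library. AKR1C1 and AKR1C2 also fell with both hairpins, by 0.76 ± 0.12 and 0.68 ± 0.12 on the log2 scale (adjusted p = 0.000455 and 0.00078, edgeR), against 1.29 ± 0.21 for AKR1C3. In LNCaP and LNCaP95 cells AKR1C1 stayed at or below 1.75 CPM and AKR1C2 at or below 4.37 CPM, both in the library that stood apart, and at or below 0.834 and 1.42 CPM in the other libraries.

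**Figure D4:**
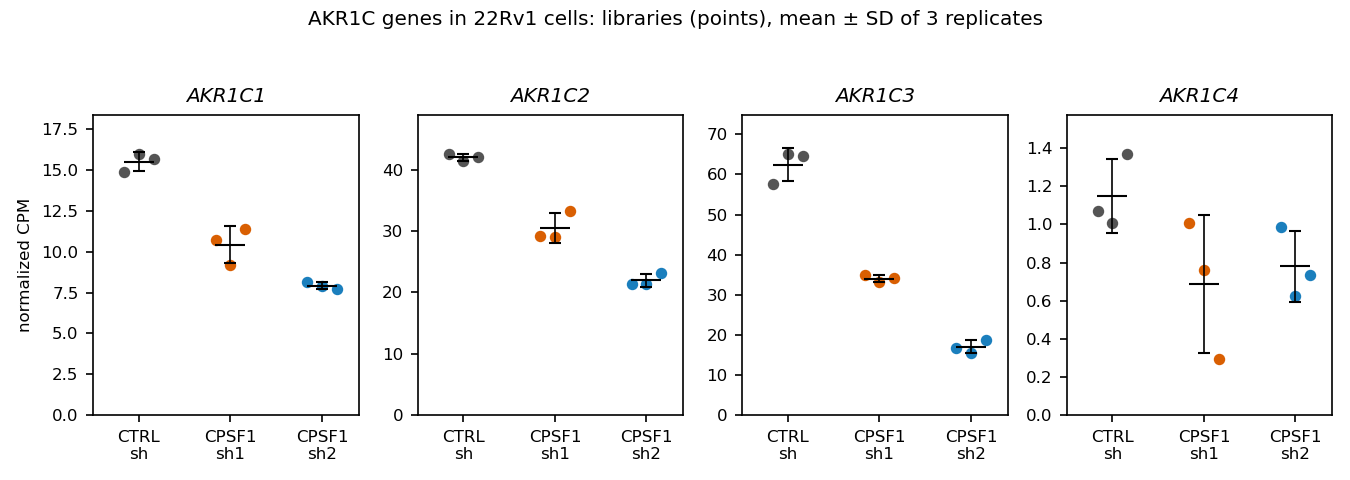
AKR1C1, AKR1C2, AKR1C3 and AKR1C4 in the 9 libraries of 22Rv1 cells, in normalized CPM (y axis from 0, a scale per panel) by hairpin. Points are libraries, and bars give the mean ± SD of 3 replicates. AKR1C1, AKR1C2 and AKR1C3 are highest in controls and lowest with CPSF1 sh2, with AKR1C3 at 62.4, 34.0 and 17.0 CPM.

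The 5α-reductases fell together in LNCaP95 cells. SRD5A1 (chr5:6633456-6669675, + strand), which makes dihydrotestosterone from testosterone, was at 59.6, 58.4 and 59.6 CPM in controls, 37.4, 35.5 and 35.5 CPM with sh1 and 28.6, 25.2 and 27.4 CPM with sh2. The 3 groups did not overlap, and SRD5A1 fell by 0.90 ± 0.11 on the log2 scale with both hairpins (adjusted p = 1.34e-05, edgeR), to 0.536 of the control level. SRD5A3 (chr4:56212276-56239263, + strand), which also saturates polyprenol to dolichol for protein glycosylation, was at 191, 187 and 172 CPM in controls, 111, 112 and 114 CPM with sh1 and 99.0, 101 and 97.7 CPM with sh2. It fell by 0.79 ± 0.06 on the log2 scale (adjusted p = 3.39e-07, edgeR), to 0.577 of the control level, again without overlap. CPSF1 sh2 lowered both genes further than CPSF1 sh1, SRD5A1 by a further 0.42 ± 0.07 and SRD5A3 by 0.18 ± 0.05 on the log2 scale (adjusted p = 7.25e-05 and 0.0061, edgeR). CPSF1 RNA differed between these hairpins by log2 0.00 (95% interval -0.17 to 0.18). The part of unequal knockdown in the differences of both genes was not tested.

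Neither reductase passed the test in LNCaP cells. SRD5A1 was at 39.3 to 42.9 CPM in LNCaP controls and 36.3 to 41.8 CPM in the 6 knockdown libraries (log2 -0.06, 95% interval -0.18 to 0.06), and SRD5A3 at 64.2 to 70.8 and 65.0 to 66.3 CPM (log2 -0.06, 95% interval -0.15 to 0.03). Without the library that stood apart the changes were log2 -0.07 ± 0.06 and -0.06 ± 0.05. In 22Rv1 cells SRD5A3 was at 67.0 to 68.7 CPM in controls and 53.8 to 62.8 CPM with the hairpins, without overlap, and fell by 0.22 ± 0.05 on the log2 scale (adjusted p = 0.00677, edgeR). SRD5A1 in 22Rv1 cells was at 26.8 to 29.4 CPM in controls and 29.0 to 31.5 CPM with the hairpins, which overlapped (log2 0.12 ± 0.06, adjusted p = 0.159, edgeR). After knockdown the SRD5A1 level of LNCaP95 cells, highest of the lines in controls, lay at 25.2 to 37.4 CPM, and that of SRD5A3, at 97.7 to 114 CPM, was still above every LNCaP and 22Rv1 library.

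Because these 2 genes moved together in LNCaP95 cells, their promoters are shown from RefSeq (GRCh38.p14), 250 bases before to 50 after the gene start, 5′ to 3′ in the sense of the gene. Of the 9 members, 7 had an entry. Capitals mark the GC box, GGGCGG on either strand (CCGCCC on the strand shown).
SRD5A1 promoter, chr5:6633190-6633489, + strand: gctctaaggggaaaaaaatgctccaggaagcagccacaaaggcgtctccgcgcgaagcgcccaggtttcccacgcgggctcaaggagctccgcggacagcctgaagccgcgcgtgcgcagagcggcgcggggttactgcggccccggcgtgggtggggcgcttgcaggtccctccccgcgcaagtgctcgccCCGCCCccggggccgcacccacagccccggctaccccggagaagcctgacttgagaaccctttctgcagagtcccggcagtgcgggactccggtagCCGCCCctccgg
SRD5A3 promoter, chr4:55345992-55346291, + strand: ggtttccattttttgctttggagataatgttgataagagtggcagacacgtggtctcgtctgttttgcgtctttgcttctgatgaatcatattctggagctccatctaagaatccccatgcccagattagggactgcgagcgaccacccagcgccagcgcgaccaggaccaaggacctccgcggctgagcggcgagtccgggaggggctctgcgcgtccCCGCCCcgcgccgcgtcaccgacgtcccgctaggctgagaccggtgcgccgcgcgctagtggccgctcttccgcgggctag
SRD5A1 had 2 GC boxes and SRD5A3 had 1, and 45.0% of 35116 RefSeq promoters of this length hold the motif. Neither window held CCAAT (34.6% of promoters) or TATAAA (11.5%) on either strand. A motif match is a description of these letters and not a binding site.

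Among the oxidizing 17β-hydroxysteroid dehydrogenases, HSD17B11 (chr4:88257762-88312538, - strand) turns an androgen metabolite to androsterone and sits on lipid droplets. In 22Rv1 cells it was at 89.6, 89.1 and 89.8 CPM in controls, 79.6, 74.3 and 77.4 CPM with sh1 and 64.4, 68.4 and 71.3 CPM with sh2. All 6 knockdown libraries lay below the controls, and it fell by 0.30 ± 0.06 on the log2 scale (adjusted p = 0.00238, edgeR). In LNCaP cells it was at 12.3, 12.4 and 11.7 CPM in controls, 9.60, 9.40 and 14.4 CPM with sh1 and 9.34, 8.68 and 9.43 CPM with sh2. The 14.4 CPM again belongs to the library that stood apart. With it the change was log2 -0.26 ± 0.14 (adjusted p = 0.121, edgeR), and without it HSD17B11 fell by 0.38 ± 0.09 on the log2 scale (adjusted p = 0.00192). With sh1 alone the change was log2 -0.11 ± 0.14 (adjusted p = 0.509, edgeR) with that library and -0.35 ± 0.12 (adjusted p = 0.0184) without it, and with sh2 alone log2 -0.41 ± 0.14 (adjusted p = 0.0135). In LNCaP95 cells all 6 knockdown libraries, at 17.14 to 20.1 CPM, lay above the controls at 15.2 to 17.05 CPM. The difference of log2 0.19 ± 0.08 did not pass the threshold (adjusted p = 0.0515, edgeR), and with CPSF1 sh2 alone it did (log2 0.24 ± 0.09, adjusted p = 0.0182). That call was lost with DESeq2, with no filter, and without CTRL sh replicate 2 or CPSF1 sh2 replicate 2 (adjusted p = 0.0543 with DESeq2, and 0.0933, 0.0625 and 0.0888 with edgeR).

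HSD17B6 (chr12:57145945-57181574, + strand) was low throughout, and PRIM1 on the opposite strand overlaps it, so its reads depend on the strand-specific counting. In LNCaP95 cells it was at 2.00, 2.38 and 1.83 CPM in controls, 3.55, 3.44 and 4.72 CPM with sh1 and 3.29, 2.68 and 3.22 CPM with sh2. Every knockdown library was above the controls, but the gene was below the main filter. With filterByExpr it rose by log2 0.71 ± 0.20 (adjusted p = 0.00806, edgeR). In 22Rv1 cells, where it was tested, it lay between 2.85 and 4.14 CPM in all 9 libraries (log2 0.00, 95% interval -0.34 to 0.34). In LNCaP cells it was below the filter at 1.56 to 2.76 CPM. HSD17B2 (chr16:82068609-82132139, + strand), which turns testosterone back to androstenedione, had 2, 3 and 0 counts in LNCaP controls, 6, 3 and 8 with sh1 and 5, 11 and 10 with sh2, and 0 to 6 counts in LNCaP95 libraries. All 6 LNCaP knockdown libraries, at 0.271 to 0.834 CPM, lay above the controls, at 0 to 0.253 CPM. HSD17B2 was below the filter in every line. Without a filter the LNCaP change passed the test (log2 2.02 ± 0.65, adjusted p = 0.0156, edgeR), a value that rests on 0 to 11 counts a library.

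HSD17B10 (chrX:53458206-53461320, - strand) is a mitochondrial enzyme of isoleucine breakdown and a subunit of mitochondrial RNase P, which cuts tRNAs from their precursors. In LNCaP cells it was at 103, 97.0 and 106 CPM in controls, 149, 143 and 136 CPM with sh1 and 140, 141 and 141 CPM with sh2. In LNCaP95 cells it was at 89.2, 87.3 and 88.8 CPM in controls, 126, 122 and 132 CPM with sh1 and 134, 137 and 139 CPM with sh2. No knockdown library overlapped the controls in either line. HSD17B10 rose 1.39-fold in LNCaP cells (log2 0.48 ± 0.04, adjusted p = 1.64e-07, edgeR; log2 0.49 ± 0.04 without the library that stood apart) and 1.49-fold in LNCaP95 cells (log2 0.57 ± 0.05, adjusted p = 1.24e-06). In 22Rv1 cells, where its control level was highest at 124, 127 and 127 CPM, knockdown libraries lay between 121 and 145 CPM and the change did not pass the test (log2 0.04, 95% interval -0.06 to 0.15).

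HSD17B4 (chr5:118788138-118878028, + strand), the D-bifunctional protein of peroxisomal β-oxidation, was among the highest members in every line. In 22Rv1 cells it was at 266, 271 and 278 CPM in controls, 255, 240 and 249 CPM with sh1 and 236, 222 and 232 CPM with sh2, and fell by 0.18 ± 0.04 on the log2 scale (adjusted p = 0.00858, edgeR). All knockdown libraries lay below the controls there. Without CTRL sh replicate 3 the change was log2 -0.16 ± 0.05 and no longer passed (adjusted p = 0.0568, edgeR). In LNCaP cells the hairpins lay on opposite sides of the controls. Controls were at 325 to 337 CPM, CPSF1 sh1 at 347 to 355 CPM (log2 0.09 ± 0.03, adjusted p = 0.0231, edgeR) and CPSF1 sh2 at 311 to 321 CPM (log2 -0.06 ± 0.03, adjusted p = 0.0886). Without the library that stood apart the CPSF1 sh1 change was log2 0.08 ± 0.04 and no longer passed (adjusted p = 0.0781, edgeR). In LNCaP95 cells it was at 282 to 293 CPM in controls and 271 to 300 CPM with the hairpins (log2 0.01, 95% interval -0.09 to 0.10).

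Taken hairpin by hairpin against the same control libraries, CPSF1 sh1 changed 3 of 6 tested members in LNCaP cells (STS, HSD17B10 and HSD17B4 higher, background 62.6%) and CPSF1 sh2 also 3 (STS and HSD17B10 higher, HSD17B11 lower, background 64.6%). Without the library that stood apart HSD17B11 was called with sh1 as well, and HSD17B4 was not. In LNCaP95 cells the counts were 3 of 5 (background 66.4%) and 4 of 5 (background 73.4%), and in 22Rv1 cells 4 of 8 (background 19.9%) and 5 of 8 (background 40.0%). Set directly against each other, the hairpins differed for HSD17B4 in LNCaP cells (log2 -0.15 ± 0.03, CPSF1 sh2 minus CPSF1 sh1, adjusted p = 0.00322, edgeR, background 14.8%), for SRD5A1 and SRD5A3 in LNCaP95 cells (background 34.1%) and for AKR1C3 in 22Rv1 cells (background 11.3%). Each of these 4 values was lower with CPSF1 sh2, while the backgrounds beside them count both directions. STS in LNCaP95 cells, below the main filter, went the other way. With filterByExpr it was higher with CPSF1 sh2 than with CPSF1 sh1 (log2 0.76 ± 0.14, adjusted p = 0.000289, edgeR).

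**Figure D5:**
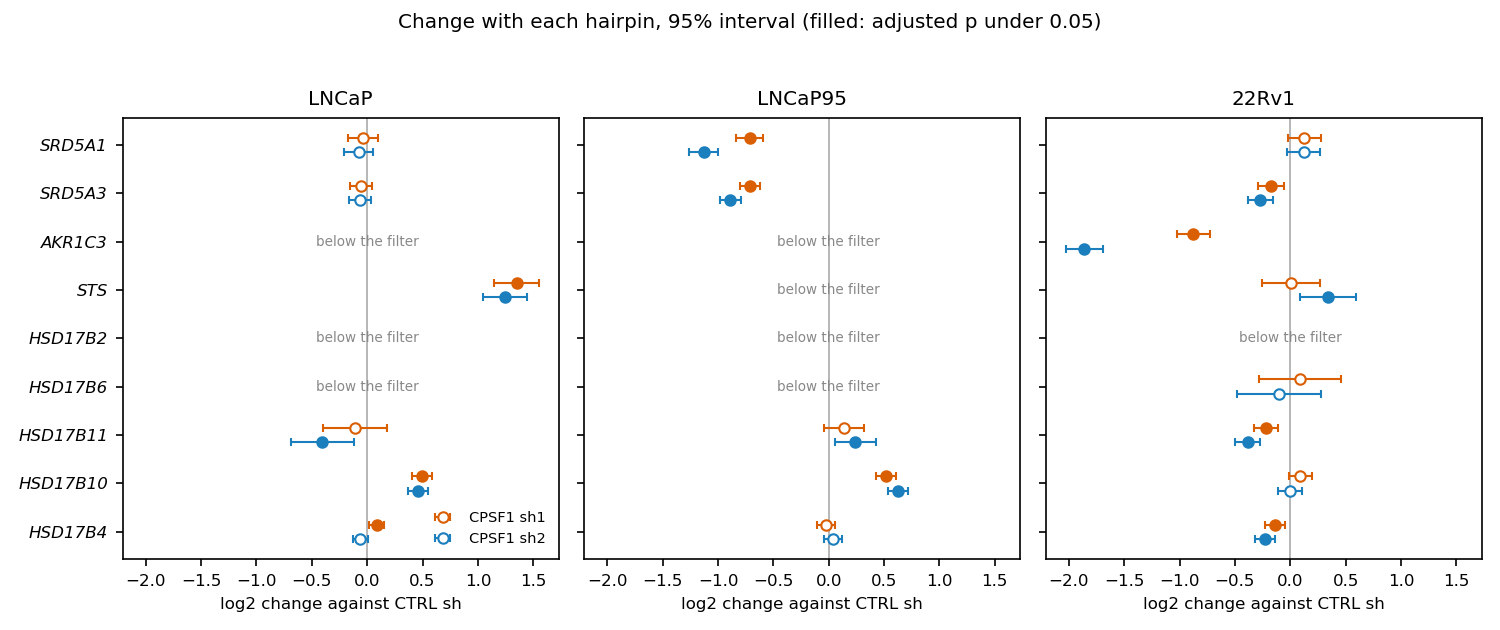
Log2 change of each gene against CTRL sh (x axis) with sh1 and CPSF1 sh2, a panel per line, with 95% intervals from edgeR. Filled points passed an adjusted p of 0.05, and genes below the count filter are marked so. AKR1C3 in 22Rv1 cells, SRD5A1 in LNCaP95 cells and STS in LNCaP cells lie farthest from 0.

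The change with knockdown differed between lines for all 5 members above the filter in all 27 libraries, in at least 1 pair of lines. Over all tested genes the share that differed in at least 1 pair was not counted. In single pairs it was 50.3 to 61.6%, so such a difference is common among genes. SRD5A1 and SRD5A3 fell more in LNCaP95 than in LNCaP cells, by 0.85 ± 0.07 and 0.72 ± 0.05 on the log2 scale (adjusted p = 1.41e-11 and 1.33e-12 for the interaction, edgeR), and HSD17B11 moved higher by log2 0.46 ± 0.13 (adjusted p = 0.00236). Those 3 of 5 compare with a background of 59.7%. Between 22Rv1 and LNCaP cells 4 of 5 differed (background 50.3%), with HSD17B10 at log2 -0.42 ± 0.05 as the largest. Between 22Rv1 and LNCaP95 cells all 5 differed (background 61.6%), from log2 1.04 ± 0.08 for SRD5A1 and 0.57 ± 0.06 for SRD5A3 to -0.53 ± 0.05 for HSD17B10. The same members passed in each pair of lines without the library that stood apart, with HSD17B11 at log2 0.58 ± 0.10 between LNCaP95 and LNCaP cells. STS, which missed the filter through LNCaP95 cells, entered with filterByExpr, where its change differed between 22Rv1 and LNCaP cells (log2 -1.12 ± 0.14, adjusted p = 1.12e-07, edgeR) and between 22Rv1 and LNCaP95 cells (log2 -1.44 ± 0.20, adjusted p = 3.57e-07), and did not pass between LNCaP95 and LNCaP cells (log2 0.32 ± 0.20, adjusted p = 0.184). AKR1C3 and HSD17B6 entered too. AKR1C3 passed in no pair with LNCaP cells. Between 22Rv1 and LNCaP cells it was at log2 -1.01 (adjusted p = 0.0554, edgeR). Without the library that stood apart that value was -0.21 (adjusted p = 0.676). Between 22Rv1 and LNCaP95 cells AKR1C3 passed without that library (log2 -1.11, adjusted p = 0.00953, edgeR) and not with it (adjusted p = 0.109). HSD17B6 passed only between 22Rv1 and LNCaP95 cells (log2 -0.70, adjusted p = 0.0141, edgeR). CPSF1 itself fell by 0.65, 0.89 and 0.50 on the log2 scale in the LNCaP, LNCaP95 and 22Rv1 line, and the part of that unequal knockdown in these differences was not tested.

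Of 32 other genes of androgen synthesis and inactivation in the table, 13 were tested in LNCaP cells, where 5 rose and 6 fell, 11 in LNCaP95 cells, where 1 rose and 5 fell, and 13 in 22Rv1 cells, where none rose and 5 fell. Over all tested genes 62.1%, 66.9% and 26.9% were called in these lines, split about evenly by direction. The median log2 change of the list was -0.12, -0.10 and -0.10. Without the LNCaP library that stood apart the LNCaP counts of this list and of the dolichol list were as given, 1 gene fewer fell in each of the other two lists, and 61.9% of all tested genes changed. SULT2B1, which puts sulfate on steroids, the opposite reaction to that of STS, fell by 1.65 ± 0.11 on the log2 scale in LNCaP cells (adjusted p = 1.43e-08, edgeR) and by 1.26 ± 0.12 in LNCaP95 cells (adjusted p = 1.89e-06), and was at 0.384 CPM in 22Rv1 controls. HSD17B7, which serves cholesterol synthesis, fell in each line, by 0.60, 0.73 and 0.42 on the log2 scale. HSD17B1, which makes estradiol, rose by log2 0.95 and 0.52 in LNCaP and LNCaP95 cells, and H6PD, a source of NADPH in the endoplasmic reticulum, fell by 0.39, 0.34 and 0.20 in the 3 lines. By RPKM the highest genes of this list in controls were CYB5A, an electron donor to androgen synthesis, in LNCaP (173 ± 2.04, SD, n = 3) and LNCaP95 cells (238 ± 6.99), and PAPSS1, which makes the sulfate donor, in 22Rv1 cells (102 ± 3.12).

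The partners of the members outside the steroid pathway were counted as lists. Of 14 peroxisomal β-oxidation genes around HSD17B4, 7 rose and 5 fell among 14 tested in LNCaP cells, 7 rose and 4 fell among 13 in LNCaP95 cells, and 3 rose and none fell among 13 in 22Rv1 cells, where HSD17B4 itself fell, against 62.1%, 66.9% and 26.9% of all genes called. CROT, which readies shortened acyl chains for export from the peroxisome, rose in all lines, by log2 1.21, 0.98 and 0.38. ACAA1, the thiolase that follows HSD17B4, rose by log2 0.55, 0.45 and 0.25, and CRAT, a carnitine acetyltransferase, fell by 1.28 and 0.54 in LNCaP and LNCaP95 cells. Of 10 mitochondrial partners of HSD17B10, 3 rose and 5 fell in LNCaP cells, 4 rose and 2 fell in LNCaP95 cells, and 2 rose and none fell in 22Rv1 cells, so that 8, 6 and 2 of 10 were called beside the same backgrounds of 62.1%, 66.9% and 26.9%. BCKDHA and ACAT1 fell with both hairpins in LNCaP and LNCaP95 cells, with mean log2 changes of -0.85 and -0.21 there. HADHB rose in all 3 lines (mean log2 0.23). TRMT10C, which pairs with HSD17B10 in RNase P, rose by log2 0.22, 0.39 and 0.24 in the 3 lines (adjusted p = 0.00213, 0.000704 and 0.0322, edgeR). The nuclease subunit KIAA0391 was at log2 -0.15 in LNCaP and 0.26 in LNCaP95 cells, both called, and -0.05 in 22Rv1 cells. Of 12 dolichol pathway genes around SRD5A3, 6 rose and 2 fell in LNCaP cells, 7 rose and 2 fell in LNCaP95 cells, where SRD5A3 fell, and none rose and 4 fell in 22Rv1 cells, again beside 62.1%, 66.9% and 26.9% of all genes called. DOLK, the kinase that activates dolichol, rose by log2 0.37 and 0.33 in LNCaP and LNCaP95 cells and fell by 0.30 in 22Rv1 cells, and DPM3, an anchor of dolichol-phosphate-mannose synthase, fell by 0.42 and 0.81 in LNCaP and LNCaP95 cells.

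Nearest genes on the same strand moved with a member in some cases and not in others. TMEM165, 22861 bases downstream of SRD5A3, was at log2 0.39 ± 0.04 in LNCaP and 0.07 ± 0.07 in LNCaP95 cells, where SRD5A3 fell. PAPD7, 45043 bases downstream of SRD5A1, fell by 0.38 ± 0.06 on the log2 scale in LNCaP95 cells (adjusted p = 0.000149, edgeR) and by 0.20 ± 0.07 in LNCaP cells (adjusted p = 0.0173), where SRD5A1 did not pass. HUWE1, 97737 bases upstream of HSD17B10, rose by log2 0.47 ± 0.06 in LNCaP95 cells and was at 0.11 ± 0.05 in LNCaP cells. SMC1A, 8529 bases downstream of HSD17B10, was at log2 0.13 ± 0.04 and 0.07 ± 0.05 there, called only in LNCaP95 cells. TNFAIP8, upstream of HSD17B4, fell by 0.56 ± 0.10 on the log2 scale in LNCaP95 cells. RBMS2, upstream of HSD17B6, fell by 0.63 ± 0.08 in LNCaP cells. Over all tested genes 62.1% were called in LNCaP and 66.9% in LNCaP95 cells. The neighbours of STS, CXorf28 and VCX, stayed below 0.5 CPM in controls.

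Across the 9 group means of log2 CPM the members with the widest range were HSD17B11 (3.22), SRD5A3 (1.71) and SRD5A1 (1.12). Among 10317 genes, the patterns closest to HSD17B11 were those of TAGLN2, APLN and CD46 (Pearson r 0.996, 0.995 and 0.995), to SRD5A3 those of ZFPL1, SEC13 and WASF2 (0.989, 0.988 and 0.988), and to SRD5A1 those of OTUD5, PPP2R2A and MORC3 (0.984, 0.974 and 0.971). These means come from 3 lines and share their libraries, so the correlations only describe likeness.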

How the data were processed

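RNA of 27 libraries was sequenced as paired-end reads from a stranded poly(A) kit. As deposited, the values are whole-number read counts per gene symbol on exons, which the authors made by alignment to GRCh37 with HISAT2 (version 2.1.0) and counting on the opposite strand with featureCounts of Subread (version 2.0.3 in the submitters' processing notes, while the methods name another) and Ensembl annotation. No replicates were pooled. The table also gives exon length and gene position.

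The genes, lists and tests reported here were chosen with earlier results of these data known. Within each line, genes above 2 CPM in all 9 libraries were tested with edgeR (version 4.0.16, R 4.3.3) by the legacy quasi-likelihood F-test after TMM scaling, 6 CPSF1 sh against 3 CTRL sh libraries, and hairpin contrasts came from a fit with 3 groups. Baseline fits kept genes above 2 CPM in the 3 CTRL sh libraries of at least 1 line, and differences between lines used genes above 2 CPM in all 27 libraries. P-values were adjusted by Benjamini-Hochberg over all genes tested, with a threshold of 0.05. Standard errors were the log2 change divided by the square root of F. Depth of 8515624 to 15904518 counts sets the precision of low genes. The scripts were tested on simulated data. Replicate pairs of a group differed by more than counting noise, with a chi-square per degree of freedom of 1.38 to 6.98 over 27 pairs, so none was treated as a repeat deposit. Named genes were all 9 members, CPSF1, and per list up to 6 genes called in the same direction with both hairpins in most lines, largest mean change first. Not every gene that met this rule is named in the text. KIAA0391, a partner of HSD17B10 in RNase P, lies outside that rule and was chosen after its values were seen. Alternatives were RLE factors or library size in place of TMM, filterByExpr or no filter, DESeq2 (version 1.42.0), the current edgeR form, a 1.5-fold minimum, a replicate block and leaving out each library. 1 gene of the list of other androgen synthesis and inactivation genes is not reported here by name.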

Additional observations from a re-analysis of the deposited data

Results flagged for a closer look

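The change with CPSF1 knockdown differed between lines by edgeR's interaction test for each of the following, which is why they are listed. LNCaP95 minus LNCaP gave log2 -0.85 for SRD5A1, -0.72 for SRD5A3 and 0.46 for HSD17B11. 22Rv1 minus LNCaP gave log2 0.20 for SRD5A1, -0.15 for SRD5A3, -0.18 for HSD17B4 and -0.42 for HSD17B10. 22Rv1 minus LNCaP95 gave log2 1.04 for SRD5A1, 0.57 for SRD5A3, -0.19 for HSD17B4, -0.53 for HSD17B10 and -0.50 for HSD17B11. Adjusted p ranged from 5.9e-13 for SRD5A1 between 22Rv1 and LNCaP95 to 0.0372 for SRD5A3 between 22Rv1 and LNCaP (edgeR). The interaction of HSD17B11 between LNCaP95 and LNCaP was log2 0.58 without the LNCaP library that held signal of 22Rv1 genes. CPSF1 itself differed in its change between 22Rv1 and LNCaP95 by log2 0.39 (adjusted p = 0.000823, edgeR) and between LNCaP95 and LNCaP by -0.22 (adjusted p = 0.0476). Its part in these differences was not tested, and line, medium and possibly puromycin dose cannot be told apart in the differences that involve LNCaP95 cells.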

How the results depend on the processing

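Of 69 called values of the members, 58 kept their call and 0 changed direction in every alternative other than a 1.5-fold minimum. Asking also for a 1.5-fold change left 1 member called in LNCaP (STS) and 1 in 22Rv1 (AKR1C3) with both hairpins, 1 with each hairpin in LNCaP and 22Rv1, 0 between hairpins in LNCaP and LNCaP95, 3 and 4 at baseline for LNCaP95 and 22Rv1 against LNCaP, and 0 and 1 for the difference of 22Rv1 from LNCaP and LNCaP95. In LNCaP95 cells library size alone, filterByExpr and no filter gave 5 called with both hairpins, and the last 2 gave 5 with CPSF1 sh1. No filter gave 5 with CPSF1 sh2 in LNCaP. DESeq2 gave 2 with CPSF1 sh1 in 22Rv1 and 2 for 22Rv1 minus LNCaP, and a fit of only the 6 libraries compared gave 2 with CPSF1 sh1 in 22Rv1. An alternative added after seeing the data, filterByExpr without the third LNCaP CPSF1 sh1 library, gave 4 with both hairpins and 5 with CPSF1 sh2 in LNCaP, and 8 for 22Rv1 minus LNCaP95. The wider filters test more members, and the cause of the other changes was not tested.

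Leaving out 1 library at a time gave 2 to 4 called with CPSF1 sh1 in 22Rv1 (2 without any 1 of the CTRL sh replicates 1, 2 and 3), 1 to 2 between hairpins in 22Rv1 (2 without CPSF1 sh1 replicate 1 or 3) and 2 to 4 for 22Rv1 minus LNCaP (2 without 22Rv1 CTRL sh replicate 1 or 2). The calls of HSD17B4 and SRD5A3 with CPSF1 sh1 in 22Rv1 were lost in 7 and 6 of 17 alternatives, that of HSD17B4 with CPSF1 sh1 in LNCaP in 7 of 18, and those of SRD5A1 and SRD5A3 for 22Rv1 minus LNCaP in 11 and 8 of 36. Depth limits AKR1C3 in LNCaP and LNCaP95, HSD17B6 and HSD17B2.

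With the replicate number as a block, counts stayed as in the fit without it but for CPSF1 sh2 in LNCaP (4, with HSD17B4 added) and between hairpins in LNCaP95 (3, with HSD17B10 added). Same-numbered libraries of a line correlated from -0.272 to 0.322 in their deviations, with 7 of 27 pairs above 0.1. Differently numbered libraries of a line correlated from -0.338 to 0.286, with 7 of 54 pairs above 0.1. The labels give only a replicate number, and whether same-numbered libraries share a batch was not tested.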
